A study of Mus musculus with 19 samples.

Results

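Ms4a4c, Ms4a6b, Ms4a6c, Ms4a6d and Ms4a7 are genes of the Ms4a family of membrane proteins, and their transcripts were followed in mouse gastrocnemius, a calf muscle, after an acute loss of blood flow. All probes whose target name was one of these 5 symbols were taken, which gave 8 of the 45281 probes on the array. The 5 genes were picked with the ischemia response of these same arrays in view. Their differences between ischemic and non-ischemic muscle are therefore given as a description, with no test. Of the 8 probes, 5 passed the filter on dim probes (3 or more of the 19 arrays with a detection p below 0.05) and were tested: 2 for Ms4a6d, 2 for Ms4a7 and 1 for Ms4a6b. The single probes of Ms4a4c and Ms4a6c and another probe of Ms4a7 did not pass.

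The study asked what inhibition of miR-210, a microRNA induced by low oxygen, does to gene expression in ischemic muscle. CD1 mice, an outbred stock, were 2 months old. A modified oligonucleotide (locked nucleic acid, 15 nucleotides long) was injected into the tail vein at 12 mg/kg, in a volume of 200 µl, 2 days before the left femoral artery was dissected, and muscle was taken 3 days after surgery. There were 4 arrays each from anti-miR-210 ischemic, scramble ischemic, anti-miR-210 non-ischemic and scramble non-ischemic muscle, and 3 from untreated muscle of CD1 mice of the same age. The injection was systemic, so neither oligonucleotide was confined to muscle. The labels do not say whether ischemic and non-ischemic muscle came from the same animals or whether each array is a separate animal, so the p-values reflect how these particular arrays varied, which may be in part technical. The inhibitor is the complement of bases 2 to 16 of miR-210-3p, whose RefSeq position is chr7:141221407-141221428 on the minus strand of GRCm38.p6. All 15 of its bases can pair with the microRNA, against 6 of 15 for the scramble control in its best ungapped alignment. The array carries no probe named for miR-210 itself, so the extent of inhibition was not measured here. The sequences show what separated the oligonucleotide groups, with the seed of the microRNA (bases 2 to 8) in capitals, and in each oligonucleotide the bases that can pair with it in capitals.
mmu-miR-210-3p: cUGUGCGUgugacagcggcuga
anti-miR-210: GCTGTCACACGCACA
SCR: CgtctAgcCaCctAG

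MS4A proteins cross the membrane several times and tend to sit in complexes with other receptors, where they affect receptor trafficking and signalling. The best known are CD20, the B cell antigen encoded by Ms4a1, and the beta chain of the high-affinity IgE receptor of mast cells, encoded by Ms4a2. Ms4a7 and the Ms4a4 and Ms4a6 genes are expressed largely in monocytes, macrophages and microglia, with Ms4a4b and Ms4a6b also known from mouse T cells. In mouse macrophages Ms4a6d has been described as a partner of the receptor Vsig4 that restrains inflammasome activity. Muscle fibres are not known as a main source of these transcripts, whereas macrophages enter ischemic muscle in the days after the injury.

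Mean deposited intensity ran from 123.6 to 297.6 over the arrays, and 32.13 to 42.3% of probes were detected on an array. Markers of skeletal muscle identified the tissue: 8 of 8 were detected on every array. Transcripts of liver were present in untreated muscle, where the summed level of 10 liver genes was 4946 to 56560 on the normalized linear scale, and on 1 scramble non-ischemic array, at 3590; it was at most 911.6 on the other arrays. The scramble ischemic group was the dimmest on average, with a mean deposited intensity of 229.5 ± 37.7 for anti-miR-210 ischemic, 153.9 ± 28.6 for scramble ischemic, 204.4 ± 24.2 for anti-miR-210 non-ischemic, 226.4 ± 16.2 for scramble non-ischemic (SD, n = 4 each) and 253.1 ± 43 for untreated muscle (SD, n = 3). No array duplicated another.

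Ms4a6d was far higher in ischemic muscle than in any group without ischemia. Its probe ILMN_1241695 read 1709.3, 5526.9, 3528.3 and 2401 in deposited intensity on the anti-miR-210 ischemic arrays, and between 98.1 and 120.6 on the anti-miR-210 non-ischemic arrays. After scramble it read 1491.8, 3020.8, 995.1 and 825.5 in ischemic muscle, and 99.6 to 139.1 in non-ischemic muscle. Every ischemic array was thus well above every non-ischemic one, although the probe was detected on all 19 arrays. On the normalized log2 scale the anti-miR-210 ischemic arrays stood at 10.92, 12.12, 11.42 and 11.45, and the scramble ischemic arrays at 11.11, 11.93, 11.11 and 11.04. The anti-miR-210 non-ischemic arrays stood at 5.74, 6.06, 5.88 and 5.95, the scramble non-ischemic arrays at 6.21, 5.91, 5.42 and 5.21, and the untreated arrays at 6.4, 4.92 and 5.9. Both ischemic groups overlapped each other, the 3 groups without ischemia overlapped each other, and a wide gap lay between. Ischemic minus non-ischemic means differed by 5.57 on the log2 scale after anti-miR-210 (47.5-fold) and by 5.61 after scramble (48.9-fold).

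The second Ms4a6d probe, ILMN_2602352, was also higher on every ischemic array than on every other array. It stood at 7.72, 8.52, 8.65 and 6.73 (log2) on the anti-miR-210 ischemic arrays and at 7.18, 8.03, 6.61 and 6.67 on the scramble ischemic arrays. Signals without ischemia were close to the detection floor, which lay between 4.4 and 4.65 over the arrays: 0 of 4 anti-miR-210 non-ischemic, 2 of 4 scramble non-ischemic and 2 of 3 untreated arrays had a detectable signal. The ischemic level was at least 10-fold higher than the non-ischemic one after anti-miR-210 and at least 5.66-fold higher after scramble, each array without a signal above its floor being set to the floor. Both probes of the gene thus ran in the same direction, and for the second the arrays give only a lower bound.

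Ms4a7 was likewise higher on every ischemic array. The probe ILMN_3091003 was also detected on all 19 arrays. Its deposited intensity was 883.3, 1498.2, 2478 and 671.9 in anti-miR-210 ischemic muscle, and 426.2, 910.3, 287.9 and 213.4 in scramble ischemic muscle. No array without ischemia exceeded 147.9, the value of an untreated array. Normalized log2 levels were 9.76, 9.92, 10.86 and 9.26 in anti-miR-210 ischemic muscle, against 4.71, 4.73, 5.2 and 4.8 without ischemia after the same oligonucleotide, a difference of means of 5.09 (34.1-fold). After scramble they were 9.02, 10.02, 8.92 and 8.59 in ischemic muscle and 5.28, 4.66, 4.66 and 4.83 in non-ischemic muscle, a difference of 4.28 (19.5-fold). Untreated muscle had 5.9, 4.83 and 4.9. Most levels without ischemia were little above the detection floor, which was 4.4 to 4.65 over the arrays. Ischemic arrays were again apart from all others, and within the arrays without ischemia the groups overlapped.

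The other 2 Ms4a7 probes were dim. ILMN_3019158 was detected on all 8 ischemic arrays and on none of the other 11, with log2 levels of 6.05, 5.16, 5.55 and 4.57 in anti-miR-210 ischemic and 4.84, 5.49, 4.8 and 4.93 in scramble ischemic muscle. This gave a level at least 1.68-fold higher in ischemic than in non-ischemic muscle after anti-miR-210, and at least 1.36-fold higher after scramble. ILMN_2622436 was detected on 0 of 19 arrays. The Ms4a7 probes thus ran in the same direction where they gave a signal, and for the dimmer of them the arrays give only a lower bound.

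Ms4a6b, Ms4a6c and Ms4a4c stayed at or near the limit of detection in every group. The Ms4a6b probe ILMN_1254692 was detected on 2 of 4 anti-miR-210 ischemic arrays, at log2 levels of 4.19, 4.47, 4.44 and 4.31 over the group, and on 2 of 4 scramble ischemic arrays, at 4.81, 4.59, 4.43 and 4.55. It was detected on no array without ischemia. After scramble the ischemic and non-ischemic groups did not overlap and their means differed by 0.32. No fold is given, because only 2 of the 4 ischemic arrays detected the probe. After anti-miR-210 the groups overlapped and the means differed by 0.07, a difference that turned to -0.53 when arrays were scaled by their medians. Ms4a6c was detected on 2 of 19 arrays, both anti-miR-210 ischemic, at deposited intensities of 81.4 and 90.5, and the other 17 arrays read between 67.8 and 82.6. Ms4a4c was detected on 0 of 19 arrays, with intensities of 70 to 84.7. No order of the groups was read for Ms4a6c or Ms4a4c, and the Ms4a6b values lie so near the floor that their differences are given only as measured.

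**Figure D1:**
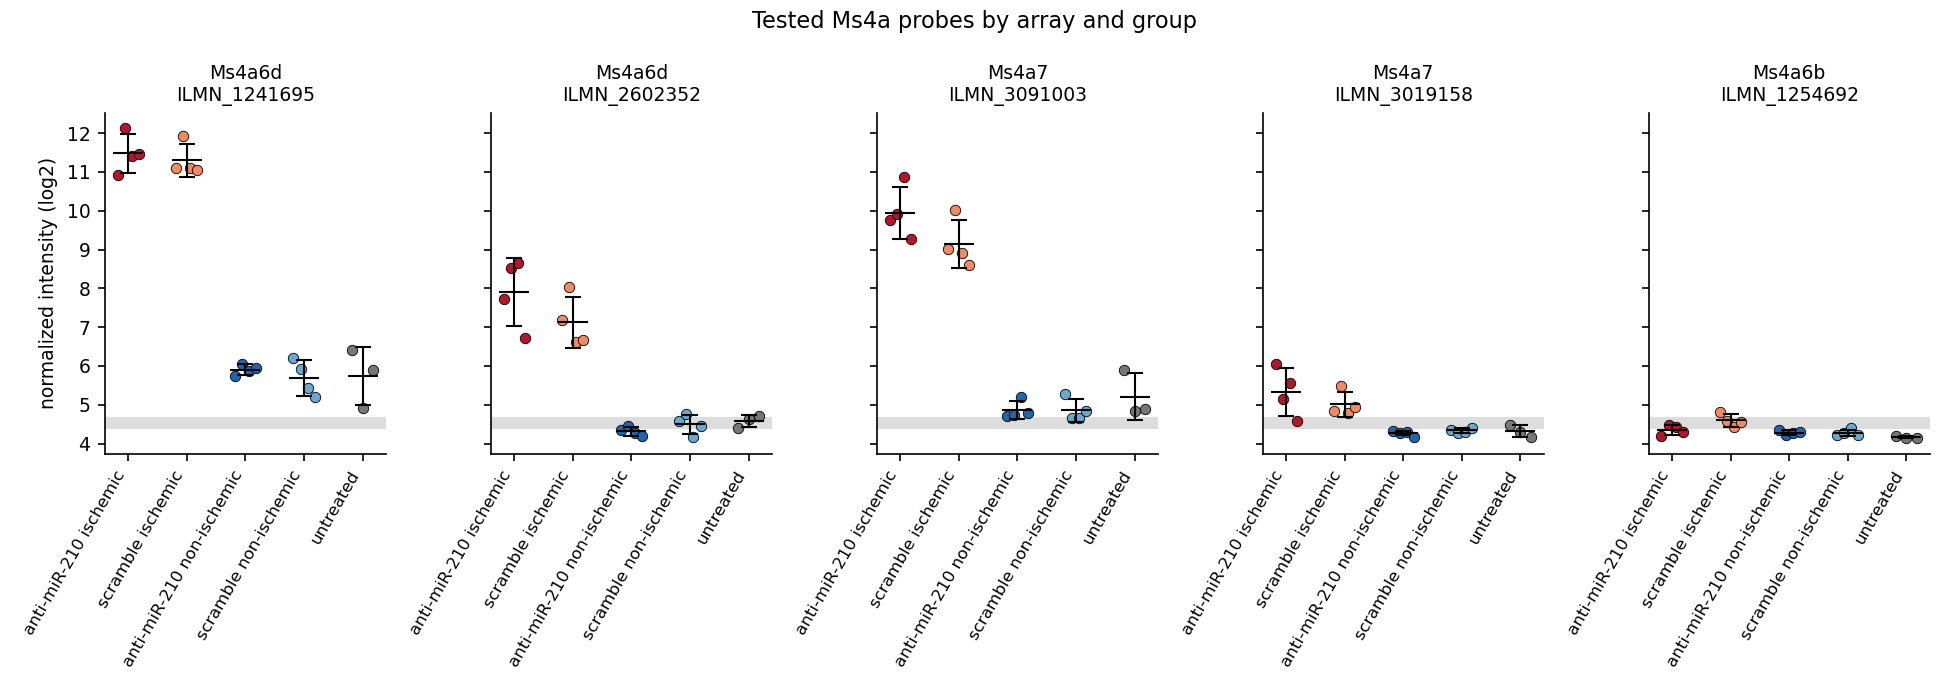
Normalized intensity (log2, vertical axis) of the 5 tested probes on each array, by group; points are arrays, the horizontal line is the group mean and bars are 1 SD (n = 4, untreated n = 3), and the grey band is the range of the detection floor, 4.4 to 4.65. Both Ms4a6d probes and ILMN_3091003 of Ms4a7 stand far above the other groups in ischemic muscle, whereas Ms4a6b lies at the floor; levels of different probes are not on a common scale.

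Ischemic and non-ischemic arrays did not overlap for 4 of 5 tested probes after anti-miR-210 and for 5 of 5 after scramble, each time with the ischemic arrays higher. Over all 21083 probes tested, 41.9% after anti-miR-210 and 45.8% after scramble did not overlap, in either direction. Since the genes were picked on this contrast, nothing further is read from that count. In these bulk samples, more cells that carry a transcript and more RNA per cell cannot be told apart. A likeness across arrays was strong between the brightest probes of Ms4a6d and Ms4a7 (Pearson r of 0.98 over the 19 arrays), and it was 0.529 once each group's mean was subtracted. The pair of Ms4a6d probes had r of 0.952, and 0.387 after the group means were subtracted; for the tested Ms4a7 probes these were 0.873 and 0.558. These values are descriptions, since all arrays share the step between ischemic and other muscle.

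Replicates of a group also spread. Scramble ischemic replicate 2 was the highest of its group for both Ms4a6d probes and for both tested Ms4a7 probes. In the anti-miR-210 ischemic group, replicate 4 was the lowest for ILMN_2602352 of Ms4a6d and for both tested Ms4a7 probes, yet it was the second highest for ILMN_1241695 of Ms4a6d.

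The Ms4a genes lie side by side on chromosome 19 (RefSeq order, GRCm38.p6). Ms4a7 is the 12th and Ms4a6d the 19th of 21 genes in that order, and both were detected on all 19 arrays. The genes between them are Ms4a4a, for which no probe was found by name, and Ms4a4c, Ms4a4b, Ms4a6c, Ms4a6b and Ms4a4d, whose probes were detected on 0 to 4 arrays. Ms4a14, next to Ms4a7 and carried on the array under an older name, was detected on all 8 ischemic arrays and on 0 of the other 11. Detection thus differed between the probes of neighbouring genes. It also differed between the 3 probes of Ms4a7 (19, 8 and 0 arrays), so a weak probe and a scarce transcript cannot be told apart.

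**Figure D2:**
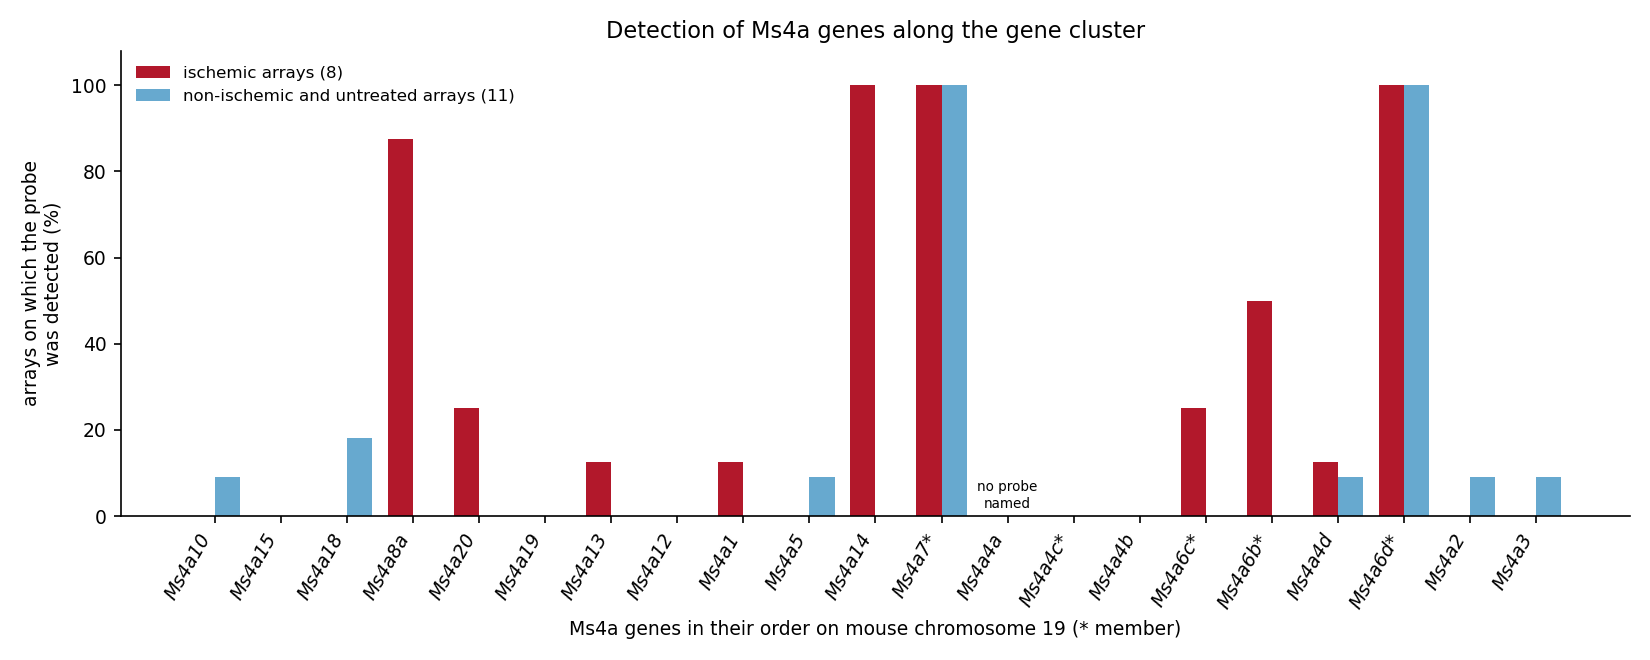
Share of arrays (%, vertical axis) on which a gene's probe with the highest mean was detected, for the Ms4a genes in their order along chromosome 19, in the 8 ischemic arrays and in the 11 non-ischemic and untreated arrays; an asterisk marks a member. Ms4a7 and Ms4a6d were detected on all arrays, Ms4a14 only on the 8 ischemic ones, and the genes between Ms4a7 and Ms4a6d on at most 4 arrays.

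Family genes other than the members were measured by 15 probes of 12 names, including the more distant Tmem176a and Tmem176b on chromosome 6, and 3 of these probes were tested. The tested probes of Tmem176a and Tmem176b were detected in every group. Both rose in ischemic muscle in both oligonucleotide groups (limma adjusted p under 0.05), where 23.8% of all probes after anti-miR-210 and 23.6% after scramble were called higher. Tmem176b, which encodes a cation channel of dendritic cells and macrophages, averaged 9.2 in anti-miR-210 ischemic muscle, against 7.02 for anti-miR-210 non-ischemic muscle (log2 difference 2.18 ± 0.24 SE, limma adjusted p = 4.72e-07). After scramble it averaged 9.66 in ischemic against 6.99 in non-ischemic muscle (2.67 ± 0.24, limma adjusted p = 4.14e-08). Tmem176a, its neighbour and partner, rose by 1.8 ± 0.24 after anti-miR-210 (limma adjusted p = 5.16e-06) and by 2.23 ± 0.24 after scramble (limma adjusted p = 3.98e-07), where 3 of 4 non-ischemic arrays detected it. Groups did not overlap for the tested probe of either gene. The other Tmem176a probe, ILMN_2795410, was detected on 1 of 19 arrays, an untreated one, and was not tested.

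Ms4a8a, a family gene described in alternatively activated macrophages of the mouse, was detected on 7 ischemic arrays and on 0 of the other arrays, so it passed the filter only through ischemic muscle, where it is high. Its level was at least 1.22-fold higher in ischemic muscle after anti-miR-210 (limma adjusted p = 0.00221). After scramble, where 3 of 4 ischemic arrays detected it, the log2 difference was 0.38 ± 0.14 SE (limma adjusted p = 0.0355), and no lower bound is given. The scramble call was lost in 12 of 22 alternative settings, with adjusted p up to 0.331, among them those without scramble non-ischemic replicate 1, 2 or 3 or scramble ischemic replicate 3 or 4, and the anti-miR-210 call in 1 (adjusted p = 0.315 with arrays scaled by their medians). Ms4a14, found by its older name and likewise passing the filter only through ischemic arrays, was at least 1.36-fold higher in ischemic muscle after anti-miR-210 (limma adjusted p = 0.000176) and at least 1.3-fold higher after scramble (limma adjusted p = 0.00052). Because Ms4a8a and Ms4a14 were kept only for their ischemic signal, these p-values are a description and no independent support for a rise. Ms4a1 and Ms4a2, the B cell and mast cell genes of the family, were each detected on 1 of 19 arrays and were not tested.

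Promoter windows were held in the RefSeq table for 4 of the 5 members, from 250 bases before to 50 after a start site, and Ms4a7 has 2 of them. Both are printed because Ms4a7 is a member with a high ischemic signal and each holds letters that were searched for, shown in capitals. Window 1 is chr19:11336097-11336396 and window 2 is chr19:11334646-11334945, both on the minus strand of GRCm38.p6.
Ms4a7 window 1: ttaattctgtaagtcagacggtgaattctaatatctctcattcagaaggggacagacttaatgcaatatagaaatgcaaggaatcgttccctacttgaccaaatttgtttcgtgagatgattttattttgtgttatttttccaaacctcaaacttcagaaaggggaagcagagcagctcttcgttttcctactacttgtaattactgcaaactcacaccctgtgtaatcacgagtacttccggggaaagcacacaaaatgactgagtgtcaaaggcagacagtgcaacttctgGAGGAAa
Ms4a7 window 2: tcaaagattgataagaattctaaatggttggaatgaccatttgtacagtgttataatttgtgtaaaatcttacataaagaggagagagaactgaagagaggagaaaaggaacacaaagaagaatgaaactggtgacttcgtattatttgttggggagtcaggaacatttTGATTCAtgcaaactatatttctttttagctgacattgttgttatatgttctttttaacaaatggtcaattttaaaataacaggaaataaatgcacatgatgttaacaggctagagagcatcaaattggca
Window 1 holds GAGGAA, the core of many sites of the myeloid factor PU.1, at 44 bases after the start, and window 2 holds TGATTCA, a match to the AP-1 motif TGANTCA, at 81 bases before it. Both strands were searched. GAGGAA was in 2 of the 5 member windows (the other at 61 bases before the Ms4a4c start) and in 28.3% of the 32851 windows of the table, and TGANTCA was in 1 of 5 and in 7.81%. The hypoxia response element cores ACGTG and GCGTG were in 0 and 1 of the 5 windows (GCGTG in Ms4a6c, 101 bases before the start), and in 19.6% and 32.4% of all windows. Matches of this kind are a description of letters and show no binding.

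Ms4a6b and Ms4a6c, both near the floor of detection, share a run of 48 bases in their windows, which begins 118 bases before the start in Ms4a6b and 49 before it in Ms4a6c. No other pair of member windows shared a run longer than 9 bases. The windows are printed to show how alike these neighbouring genes are before their start sites, with the shared run in capitals; they are chr19:11518309-11518608 for Ms4a6b and chr19:11469118-11469417 for Ms4a6c, both on the plus strand of GRCm38.p6.
Ms4a6b window: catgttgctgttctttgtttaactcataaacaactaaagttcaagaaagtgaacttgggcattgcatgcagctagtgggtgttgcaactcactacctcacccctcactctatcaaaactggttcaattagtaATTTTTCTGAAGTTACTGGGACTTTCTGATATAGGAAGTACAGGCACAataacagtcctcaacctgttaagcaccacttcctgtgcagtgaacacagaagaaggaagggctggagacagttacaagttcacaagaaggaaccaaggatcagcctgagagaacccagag
Ms4a6c window: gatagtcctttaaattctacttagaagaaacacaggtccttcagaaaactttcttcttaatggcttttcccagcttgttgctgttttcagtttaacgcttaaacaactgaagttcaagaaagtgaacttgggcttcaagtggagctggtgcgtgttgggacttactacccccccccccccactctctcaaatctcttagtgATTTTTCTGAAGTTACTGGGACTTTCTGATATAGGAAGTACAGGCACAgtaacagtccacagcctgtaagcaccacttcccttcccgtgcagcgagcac
Whether transcripts of such close relatives reach each other's probes was not tested.

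Inhibition of miR-210 gave no call for a member in ischemic muscle. In the comparison of anti-miR-210 with scramble ischemic muscle, limma called 0 of 5 tested member probes, where 0.896% of all probes were called. At an unadjusted p under 0.05 there were 3 of 5 (Ms4a7 ILMN_3091003, Ms4a6d ILMN_2602352 and, near the floor, Ms4a6b), where 16.0% of all probes passed. Ms4a7 ILMN_3091003 averaged 9.95 ± 0.67 in anti-miR-210 ischemic and 9.14 ± 0.61 in scramble ischemic muscle (SD, n = 4 each), a log2 difference of 0.81 ± 0.32 SE (1.76-fold, 95% interval 0.14 to 1.49, limma adjusted p = 0.211). Ms4a6d ILMN_2602352 averaged 7.9 and 7.12 in these groups, a difference of 0.78 ± 0.34 (interval 0.08 to 1.49, limma adjusted p = 0.253). The Ms4a6d probe ILMN_1241695 averaged 11.48 and 11.3, a difference of 0.18 ± 0.3 (interval -0.45 to 0.81, limma adjusted p = 0.843). Ms4a6b stood at 4.35 and 4.59, within the range of the floor or below it, so no direction was read from its difference of -0.24 (limma adjusted p = 0.281). The groups overlapped for 5 of 5 member probes, where 5.56% of all probes had no overlap, and a difference as large as the upper bounds is not excluded by these arrays.

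The size and call of these differences depended on how the arrays were made comparable. Scaling by array medians gave 3 calls among the members, in a setting that called 27.9% of all probes: Ms4a7 ILMN_3091003 at 1.08 (limma adjusted p = 0.0251), Ms4a6d ILMN_2602352 at 0.97 (limma adjusted p = 0.0427) and Ms4a6b at -0.80 (limma adjusted p = 0.00837), with a median of all probes at -0.11. With the mean brightness of the array as a covariate, which differed between these groups, the difference was -0.134 for this Ms4a7 probe and -0.003 for ILMN_2602352 of Ms4a6d, neither called. Without anti-miR-210 ischemic replicate 4, Ms4a6d ILMN_2602352 was called, at 1.18 (limma adjusted p = 0.0166), where 7.95% of all probes were called.

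In non-ischemic muscle limma called 0 of 5 member probes between anti-miR-210 and scramble, where 0.00474% of all probes were called. At an unadjusted p under 0.05 there were also 0, where 6.74% of all probes passed. The probes detected on all 8 of these arrays differed by 0.22 on the log2 scale for Ms4a6d ILMN_1241695 (interval -0.41 to 0.85) and by 0.01 for Ms4a7 ILMN_3091003 (interval -0.67 to 0.68).

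The ischemia responses of both oligonucleotide groups were compared directly. Limma called 0 of 5 member probes in this difference, where 0.0142% of all probes were called, and 0 at an unadjusted p under 0.05, where 8.41% passed. Sizes are given for the probes detected on all arrays of these 4 groups, since the others have non-ischemic levels at the floor. The responses of Ms4a7 ILMN_3091003 differed by 0.81 ± 0.46 on the log2 scale (interval -0.15 to 1.77, limma adjusted p = 0.643), and by -0.389 with array brightness as a covariate. For Ms4a6d ILMN_1241695 the responses differed by -0.04 ± 0.43 (interval -0.93 to 0.85, limma adjusted p = 0.989).

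**Figure D3:**
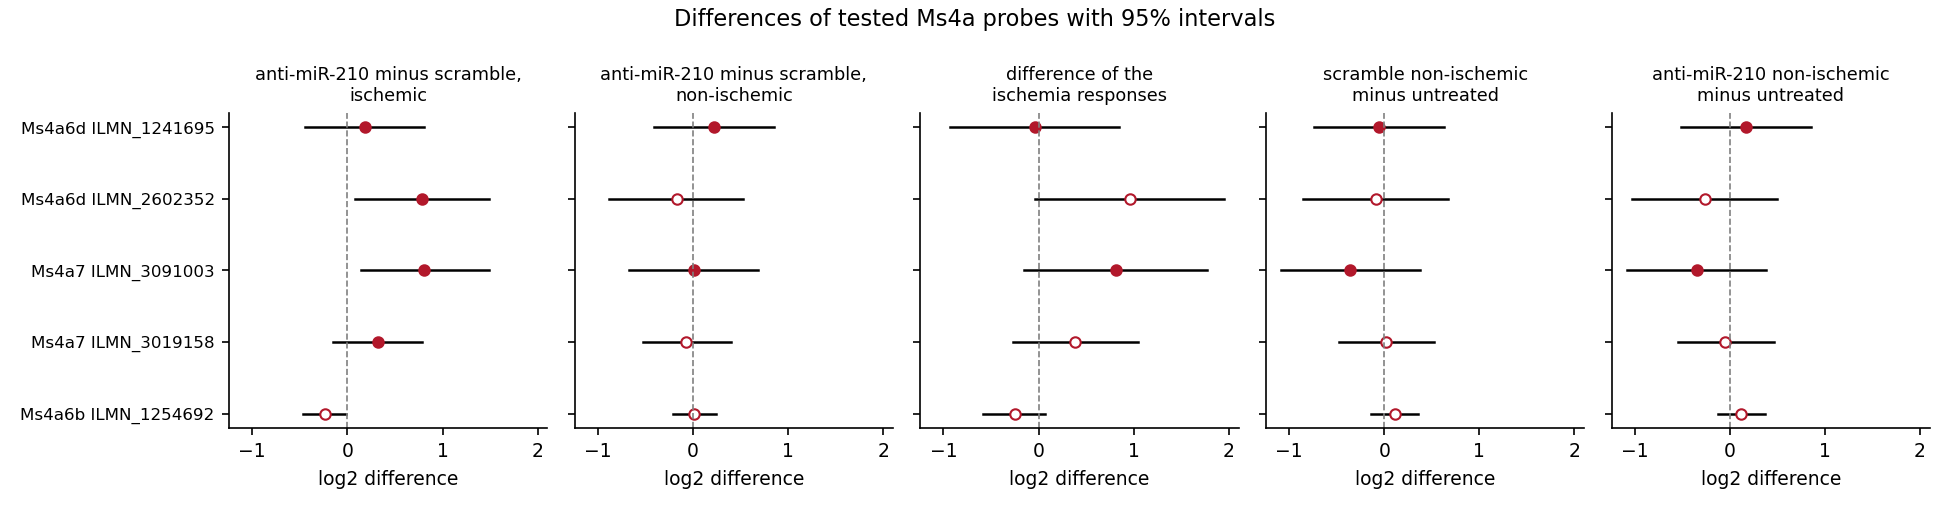
Log2 differences (points) with unadjusted 95% intervals (lines) for the 5 tested probes, in the 5 comparisons that were tested; filled points were detected on all arrays compared, open points were not and rest in part on values at the floor, and the dashed line marks no difference. In ischemic muscle the intervals of ILMN_2602352 and ILMN_3091003 lie above 0, and that of Ms4a6b, a probe near the floor, lies below 0 (-0.47 to -0.01). No adjusted p was under 0.05.

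No member was called between a non-ischemic group and untreated muscle. Limma called 0 of 5 probes for anti-miR-210 non-ischemic against untreated muscle, where 5.54% of all probes were called, and 0 at an unadjusted p under 0.05, where 19.5% passed. For scramble non-ischemic against untreated muscle it also called 0 of 5, where 2.64% were called, and 0 at an unadjusted p under 0.05, where 14.4% passed. Ms4a7 ILMN_3091003 averaged 4.86 in anti-miR-210 non-ischemic and 5.21 in untreated muscle, a log2 difference of -0.35 ± 0.35 SE (limma adjusted p = 0.661). In scramble non-ischemic muscle it averaged 4.85, a difference of -0.36 ± 0.35 (limma adjusted p = 0.748). Untreated replicate 1 was the highest of these arrays for both genes' brightest probes, at 6.4 for Ms4a6d and 5.9 for Ms4a7.

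All 3 untreated arrays carried liver transcripts, so these comparisons are touched by another tissue. In both non-ischemic groups 8 of 8 tested liver genes were called lower than in untreated muscle. Over all probes, 5.54% for anti-miR-210 and 2.64% for scramble were called in either direction. Apoa2, Ttr, Apoc3 and Ahsg passed the filter only through untreated muscle, where they are high, so the count itself is not read as a test. Alb and Fgb, also listed, were detected on 0 of 3 untreated arrays and were not tested. Without untreated replicates 2 and 3 and scramble non-ischemic replicate 1, but with untreated replicate 1, whose summed liver level was 4946, the Ms4a7 difference was -1.04 for anti-miR-210 non-ischemic and -1.18 for scramble non-ischemic muscle, neither called (limma adjusted p = 0.639 and 0.708), and that lone untreated array is assumed to vary like the other groups. Tmem176b was the single tested family gene that fell against untreated muscle, by 1.25 ± 0.26 in anti-miR-210 non-ischemic (limma adjusted p = 0.0091) and by 1.28 ± 0.26 in scramble non-ischemic muscle (limma adjusted p = 0.0118). Without the same 3 arrays these calls were lost (limma adjusted p = 0.482 and 0.553), and they were also lost without untreated replicate 3 alone (limma adjusted p = 0.069 and 0.0874). The part of liver RNA in these values was not tested further.

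Several receptors have been reported as partners of MS4A proteins, or linked to them genetically, and 5 of 8 such genes passed the filter. In ischemic against non-ischemic muscle 3 of 5 were called higher after anti-miR-210 and the same number after scramble, where 23.8% and 23.6% of all probes were called higher; 2 of the 5 passed the filter only through ischemic arrays. Trem2, a lipid receptor of macrophages whose soluble form in humans varies with the MS4A locus, was at least 31.2-fold higher in ischemic muscle after anti-miR-210 (limma adjusted p = 3.87e-11) and at least 15.6-fold higher after scramble (limma adjusted p = 1.23e-09), where 2 of 4 non-ischemic arrays detected it. Tyrobp, the adaptor through which Trem2 signals, was at least 11.4-fold higher after anti-miR-210 (limma adjusted p = 1.15e-08) and at least 5.3-fold higher after scramble (limma adjusted p = 9.64e-07), with a signal on 1 of 4 non-ischemic arrays in each. Clec7a, or dectin-1, a receptor for fungal glucans that human MS4A4A associates with, was at least 2.19-fold higher after anti-miR-210 (limma adjusted p = 0.000683) and at least 3.94-fold higher after scramble (limma adjusted p = 5.21e-06). Clec7a was detected on 4 of 4 arrays of each ischemic group and in no other group. Clec7a and Fcer1a are the 2 genes that passed the filter only through ischemic arrays, so the p-values of Clec7a are no independent support for a rise.

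Vsig4, the partner described for Ms4a6d, was called for ischemia in neither arm. Its log2 mean was 4.66 in anti-miR-210 ischemic muscle, against 4.23 in anti-miR-210 non-ischemic muscle (limma adjusted p = 0.146), and 4.34 in scramble ischemic and 4.33 in scramble non-ischemic muscle (limma adjusted p = 0.964). It was detected on 3 of 4 anti-miR-210 ischemic arrays, on 0 of 4 in each of the scramble ischemic, anti-miR-210 non-ischemic and scramble non-ischemic groups, and on 3 of 3 untreated arrays. Against untreated muscle it was at least 1.95-fold lower in anti-miR-210 non-ischemic (limma adjusted p = 0.00551) and at least 1.97-fold lower in scramble non-ischemic muscle (limma adjusted p = 0.0142), and both calls were lost without the 3 arrays named above (limma adjusted p = 0.63 and 0.877), and the scramble call also without untreated replicate 3 alone (limma adjusted p = 0.0874). Vsig4 is also a marker of Kupffer cells, the macrophages of liver. Fcer1a, the alpha chain of the IgE receptor, was called in neither arm, and Tnfrsf18, Fcer1g and Nlrp3 did not pass the filter. None of the 5 tested partners was called between anti-miR-210 and scramble ischemic muscle: Tyrobp differed by 1.12 ± 0.31 (limma adjusted p = 0.0827), Trem2 by 0.98 ± 0.28 (0.0943) and Clec7a by -0.83 ± 0.3 (0.174). At an unadjusted p under 0.05 these 3 of 5 passed, where 16.0% of all probes did. Of 22 alternative settings 5 gave a call for Tyrobp, among them those without scramble ischemic replicate 2 or anti-miR-210 ischemic replicate 1 or 4. For Trem2 3 gave a call, among them that without anti-miR-210 ischemic replicate 4, and for Clec7a 1 did, without anti-miR-210 ischemic replicate 1. These settings called 0.839 to 27.9% of all probes. Over all 22 the Tyrobp difference ran from 0.134 to 1.386, with limma adjusted p up to 0.971. That of Trem2 ran from 0.664 to 1.361 (up to 0.65) and that of Clec7a from -1.232 to -0.1 (up to 0.98).

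Most tested markers of monocytes and macrophages were higher in ischemic muscle, as were Ms4a6d and Ms4a7. Of 16 listed genes 14 were tested, and 14 of 14 rose in ischemic muscle after anti-miR-210 and 12 of 14 after scramble, with median log2 differences of 3.37 and 3.28 against -0.01 and -0.03 for all probes; 23.8% and 23.6% of all probes were called higher, and 3 of the 14 passed the filter only through ischemic arrays. The summed normalized level of the 15 markers on the array was 17120 to 26960 in anti-miR-210 ischemic, 15610 to 22250 in scramble ischemic, 720.7 to 904 in anti-miR-210 non-ischemic, 686 to 933.1 in scramble non-ischemic and 902.2 to 1620 in untreated muscle. Cd68, a lysosomal protein of macrophages, was at least 40.3-fold higher after anti-miR-210 (limma adjusted p = 1.36e-09; detected on 3 of 4 non-ischemic arrays) and at least 23.6-fold higher after scramble (limma adjusted p = 9.34e-09; detected on 2 of 4). The chemokine receptor Ccr2 was detected on no array. Between anti-miR-210 and scramble ischemic muscle 1 of 14 was called higher, where 0.896% of all probes were called. The median difference was 0.64 against 0.03 for all probes. The called gene was the integrin gene Itgam (at least 1.39-fold, limma adjusted p = 0.044). Itgam was detected on 4 of 4 anti-miR-210 ischemic, 0 of 4 scramble ischemic and 1 of 4 scramble non-ischemic arrays, and on no array of the remaining groups. It thus passed the filter only through the group where it is high, and nothing is read from its call. The part of macrophage number in the Ms4a6d and Ms4a7 values was not tested.

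Markers of other cell types that could carry family transcripts were counted in the same way, against the same shares of all probes called higher, 23.8% and 23.6%. Among B cell genes 1 of 3 tested was called higher in each arm, among T cell genes 2 of 5 after anti-miR-210 and 1 of 5 after scramble, and among mast cell and basophil genes 1 of 6 and 2 of 6; shares of so few genes are not read as a rise of these cell types. Of those tested, 2 of the 3 B cell and 4 of the 5 T cell genes passed the filter only through ischemic arrays. Of 8 listed neutrophil genes 4 were tested, 1 of them kept only through ischemic arrays, and 3 of the 4 were called higher in each arm. Mmp8, Ngp and Camp were on the array but did not pass the filter. The summed level of the 7 neutrophil genes on the array was 659.5 to 3506 in anti-miR-210 ischemic and 1636 to 7019 in scramble ischemic muscle, overlapping. Between these groups the median difference of the 4 tested was -1.03, with no call. Of 4 Kupffer cell genes tested 1 rose in each arm.

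**Figure D4:**
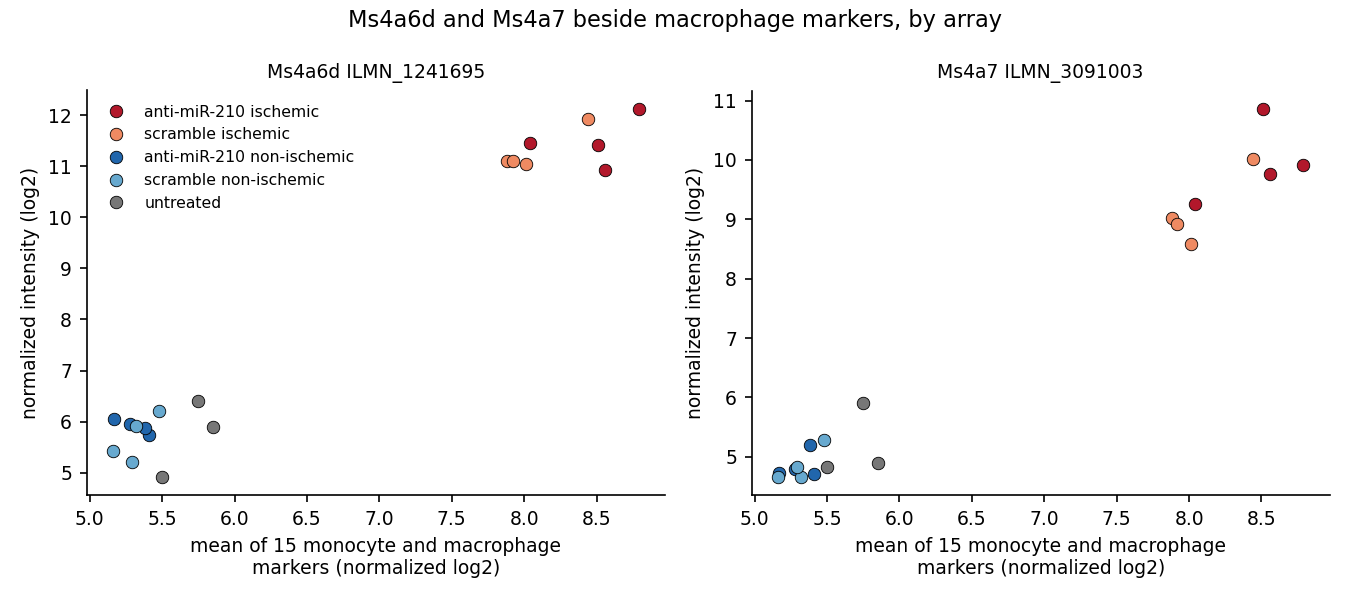
Normalized intensity (log2) of the brightest Ms4a6d probe (left) and Ms4a7 probe (right) on each of the 19 arrays, against the mean normalized log2 of 15 monocyte and macrophage markers on the same array; colours are groups. The 8 ischemic arrays form a cloud apart from the other 11, at marker means of 7.88 to 8.79 against 5.16 to 5.85.

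Probes of other genes were ranked by their likeness to the brightest tested probe of each member over the 19 arrays. Those closest to Ms4a6d were Niban2 (Pearson r = 0.993), Nckap1l (0.992), which encodes a cytoskeletal regulator of blood cells, and Mki67 (0.99), a proliferation marker. Those closest to Ms4a7 were Alox5ap (0.992), which activates leukotriene synthesis, the lysosomal protease gene Lgmn (0.99) and Slc37a1 (0.988). For the dim Ms4a6b probe they were Lsm5 (0.862), Lef1 (0.84) and Pvr (0.836). Once group means were subtracted, the closest were Grk5 (0.82), Tcf20 (0.747) and Zfp418 (0.74) for Ms4a6d, and Mavs (0.887), a probe with no gene symbol (0.861) and Tmem179b (0.857) for Ms4a7. For Ms4a6b they were Rac3 (0.913), Acot7 (0.828) and Gorasp2 (0.824). Some of these ran opposite to the member when group means were left in. Over the 19 arrays r with Ms4a7 was -0.858 for Mavs and -0.736 for the probe with no symbol, against 0.705 for Tmem179b. With Ms4a6d it was -0.177 for Zfp418, against 0.916 for Grk5 and 0.401 for Tcf20. The highest values over 19 arrays rest on the step between ischemic and other muscle that the arrays share. Different genes headed the ranking once that step was removed. Each ranking took the highest r among all kept probes, so high values can arise with no relation between the genes. Ms4a6b was detected on 4 of 19 arrays, so its rankings rest largely on values at the floor.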

How the data were processed

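Gastrocnemius RNA was measured on 19 Illumina bead arrays. The deposited table gives, per the file headers, an average bead intensity for each of 45281 probes on each array; its values were neither normalized nor background-subtracted. It also holds a deposited detection p-value, which per the file headers belongs to the same probe and array. The sources used here do not name the software that exported it. Per the labels' protocols, RNA was extracted with Trizol, cleaned on columns, and made into biotinylated cRNA with an Ambion kit. A second deposited table holds linear intensity after quantile normalization (sorted columns differ by at most 0.6), and served as an alternative.

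Arrays were grouped by their labels. The neqc function of limma 3.58.1 (R 4.3.3) was used for background and normalization: it estimates the negative controls by means of the detection p-values, adds 16 to each corrected value, normalizes arrays by quantiles and returns log2. The filter kept 21083 probes, those with a detection p below 0.05 on 3 arrays or more, each as its own feature. One limma fit over all 19 arrays gave each of the 5 groups a mean, with Benjamini-Hochberg adjustment over all kept probes within a comparison and a threshold of 0.05. Intervals are 95% and were not adjusted. For a group in which no array, or only some, detected a probe, a fold given as "at least" is a lower bound. It sets the mean of the detected group over a mean taken, per array, from the higher of the detection floor and the dim probe's own value. No batch is labelled, and none entered the fit. 0 pairs of arrays were identical. Precision is limited by the number of arrays.

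The family members, the other gene lists and the promoter letters were chosen with earlier results of these data known. Named genes are the members, the other probes of the family, reported MS4A partners, and, for each measured member, the 3 genes most correlated with it over the arrays and the 3 most correlated after group means were subtracted. On simulated data with 21083 probes for the ischemic comparison of the oligonucleotides, the fit recovered 71% of 100 probes changed by 1 on the log2 scale and 99% of 100 changed by 2, with 5 false among 175 calls. The simulation drew independent noise around each probe's mean on the normalized scale, with no normalization step and no brightness difference between groups. Its rates are averages over randomly chosen probes. They do not give the chance of finding a change in a member probe, or the false calls among the real arrays. Sequences came from RefSeq tables built on GRCm38.p6 and from the labels. Figures were drawn with matplotlib under Python.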

Additional observations from a re-analysis of the deposited data

Results flagged for a closer look

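Among 14 family and partner probes, 56 groups of 4 arrays were examined for an array far from the others, and 3 were found beyond Dixon's 95% critical value; chance alone gives about 1 in 20 groups. The brightest Ms4a6d probe stood at 11.93 (log2) on scramble ischemic replicate 2, against 11.11 for the nearest replicate of that group. Vsig4 stood at 4.23 on scramble ischemic replicate 1, against 4.37 for the nearest replicate, and was not detected on any array of that group. Ms4a14 stood at 4.31 on anti-miR-210 non-ischemic replicate 4, against 4.21 for the nearest replicate, and was likewise not detected in its group. A signal outside the member probes came from Ms4a14 under its older name, with a mean log2 level of 5.02 in anti-miR-210 ischemic muscle, against 4.28 in untreated muscle, where no array detected it.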

How the results depend on the processing

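Alternatives were run for all members. The count of member probes called between anti-miR-210 and scramble ischemic muscle was 0, and became 3 with scaling by array medians, where 27.9% of all probes were called; leaving out 1 array at a time gave 0 to 1. The direct difference of the ischemia responses gave 0 calls, and 1 with median scaling (Ms4a6b at -0.953, limma adjusted p = 0.0423), where 6.54% of all probes were called. Under the same scaling the Ms4a6b ischemia difference after anti-miR-210 reversed to -0.528. The cause was not tested. In the other 3 tested comparisons the member count stayed at 0 in all alternatives. Ischemia differences kept their sign for both Ms4a6d and both tested Ms4a7 probes in all alternatives. For Ms4a6d ILMN_1241695 they ran from 4.503 to 5.784 after anti-miR-210 and from 4.415 to 6.173 after scramble. For Ms4a7 ILMN_3091003 they ran from 3.456 to 5.333 after anti-miR-210 and from 2.715 to 5.218 after scramble.

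Over all probes, the calls between anti-miR-210 and scramble ischemic muscle numbered 189, against 5888 with median scaling, 898 with array weights, 62 without the filter on dim probes, 27 without untreated replicates 2 and 3 and scramble non-ischemic replicate 1 (untreated replicate 1, which also carried liver transcripts, stayed in), 1 with brightness as a covariate and 0 with these groups alone (17892 probes tested). Leaving out 1 array gave 17 (without anti-miR-210 ischemic replicate 2) to 1657 (without replicate 4 of that group). With the replicate number as a block, 0 members were called and 164 of all probes, against 189. Deviations of arrays with the same number correlated between -0.36 and 0.28 over 22 pairs, and between 0.05 and 0.25, above 0.1 in 3 of 8, for ischemic with non-ischemic arrays of the same oligonucleotide. In those groups 15 of 16 arrays correlated best with the array of their own number, a hint from the data and not from the design; the labels do not give a pairing, and the fits above use none. A random replicate block within each oligonucleotide, chosen after seeing the data (consensus correlation 0.061), gave 0 member calls in the 5 tested comparisons and 196 calls over all probes between anti-miR-210 and scramble ischemic muscle.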
